A study of Mus musculus with 13 samples.

Results

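Skeletal muscle fibres are named after the myosin heavy chain they hold. This motor protein of the thick filament sets how fast a fibre shortens and how much ATP it spends. In the mouse, Myh7 encodes the slow type I chain, Myh2 the fast oxidative type IIa chain, Myh1 the intermediate type IIx chain and Myh4 the fast glycolytic type IIb chain. Myh3 and Myh8 encode the embryonic and neonatal chains, which give way to the adult chains after birth, and Myh7b encodes a slow-type chain of low abundance. The gastrocnemius is a calf muscle made up mostly of fast fibres, with its slow fibres gathered in a deep region. These 7 genes were taken by symbol from the 21868 genes of a normalized count table of mouse gastrocnemius, and each was also expressed as a share of the summed counts of the 7 genes in every mouse. All 7 had a mean normalized count of at least 10, as did 12303 genes of the table, so all 7 were tested.

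The muscles came from 13 male C57BL/6 mice (C57BL/6N in the study's text) with no engineered allele named, which arrived at 7 weeks of age. All 3 groups had first eaten a diet with 60 kcal% fat for 15 to 17 weeks, were then moved to standard chow and were treated for 3 weeks, so that no group was lean or stayed on the high-fat diet. The vehicle-treated group (mice 1, 2, 3, 4 and 5) received phosphate-buffered saline. The semaglutide-treated group (mice 13, 14, 15, 16 and 17) received the GLP-1 receptor agonist semaglutide at 30 nM/kg/day by intraperitoneal injection. The labels of both these groups also name a placebo. The semaglutide + ketone ester-treated group (mice 19, 21 and 22) received the same injections while drinking water with 0.114 g/mL of a ketone ester. There was no group on ketone ester alone in the files used here. One library was made per mouse, and a single batch date was given for all 13.

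The 5 developmental and fast genes lie side by side on the plus strand of chromosome 11 (build GRCm38, GENCODE annotation). Myh3 spans 67078300 to 67102291, Myh2 67171027 to 67197517, Myh1 67200052 to 67224575, Myh4 67238029 to 67260446 and Myh8 67277124 to 67308634. Myh7 lies on the minus strand of chromosome 14 (54970684 to 54994626), beside the cardiac gene Myh6, and Myh7b on the plus strand of chromosome 2 (155611212 to 155634307). Their coding sequences run from 5805 to 5826 bases over 39 to 42 exons, so division by length left the shares almost as they were. The promoters of Myh2, Myh1, Myh4 and Myh8 are shown because these neighbours include Myh4 and Myh8, which moved most closely together below (Pearson's r = 0.97). The other pairs of these 4 did not move as closely, and Myh1 and Myh4 ran in opposite directions (r = -0.60). The part of these sequences in the levels was not tested. Among the 250 bases before each RefSeq start site (build GRCm38.p6), the longest stretch that all 4 share is 14 bases long. It is in capitals, with 40 bases on each side, all on the plus strand:
Myh2, chr11:67170862-67170955: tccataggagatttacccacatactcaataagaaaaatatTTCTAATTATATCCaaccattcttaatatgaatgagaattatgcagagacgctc
Myh1, chr11:67199902-67199995: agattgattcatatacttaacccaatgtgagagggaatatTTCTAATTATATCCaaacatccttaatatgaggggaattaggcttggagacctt
Myh4, chr11:67237614-67237707: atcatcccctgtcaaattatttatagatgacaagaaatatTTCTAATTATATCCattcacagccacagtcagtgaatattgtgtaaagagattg
Myh8, chr11:67277030-67277123: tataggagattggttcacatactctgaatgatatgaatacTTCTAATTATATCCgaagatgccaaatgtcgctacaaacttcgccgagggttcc
The stretch began 125, 160, 158 and 54 bases before the start site of Myh2, Myh1, Myh4 and Myh8. On either strand it was found in 4 of 32851 windows of this length (0.0122%), which are these 4, and since it was picked as what they share this count tests nothing. Between pairs of the 94-base windows, 38 (Myh1 and Myh8) to 52 (Myh2 and Myh8) bases were identical, the 14 included. The windows of Myh3, Myh7 and Myh7b did not hold these letters. The sequence TATAAA (either strand), which is the core of a TATA box and stood in 12.4% of all windows, was present before Myh1, Myh3, Myh4 and Myh8. Its nearest match began 32, 29 and 31 bases before the start of Myh1, Myh3 and Myh4. For Myh8 the only match began 96 bases before it, inside a MEF2 site match (99 to 90). The MEF2 site stood in 2.92% of windows and before Myh1, Myh4 and Myh8, and the CArG box in 1.47% and before Myh4. The E-box CANNTG, which muscle regulatory factors bind and which stood in 66.2% of windows, was present before Myh3, Myh4, Myh7, Myh7b and Myh8.

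The same relatedness limits the counts. Of all 59-base words in the transcript of each gene (the read length), 22.5% of those of Myh1, 22.2% of Myh2, 19.0% of Myh7, 18.1% of Myh8, 15.2% of Myh4 and 3.2% of Myh3 also occurred in another gene, and none of those of Myh7b did. For Myh7 all such words are shared with Myh6, and for Myh8 7.39% of its words are shared with the far more abundant Myh4. How reads that fit several of these genes were counted is not given in the sources used here, so their levels relative to each other are uncertain, most of all for Myh8 beside Myh4. Annotated antisense transcripts overlap the 3′ parts of Myh1 and Myh2 and were not analysed here.

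Each library held 15319471 to 23498162 reads on genes, and the 7 myosin heavy chain genes took 4.37% to 8.18% of the normalized counts. Mouse 13 stood apart from the other semaglutide-treated mice on the first principal component of all tested genes (38.1% of the variance), where its score was -9.12 against 31.8 to 52.5, and the vehicle-treated mice lay between -24.5 and -12.8. Some results that use the semaglutide-treated group are therefore also given without mouse 13. All 5 skeletal muscle markers were present in every group. Their summed normalized count was 1201338 to 1423196 in vehicle-treated, 916566 to 1402116 in semaglutide-treated and 1491959 to 1741801 in mice given both agents. The mice given both agents thus lay above all others in this sum, but the 5 markers did not all move alike. With ketone ester against semaglutide, 2 were higher and 1 lower at an adjusted p under 0.05 (limma, below), where 20.7% of all tested genes passed. Under semaglutide against vehicle 1 was higher and 1 lower (26.5% of all), and none passed between ketone ester and vehicle. The part of this in the results was not tested. Markers of other cells also differed between groups, in part with overlapping ranges, and their part in the results was not tested. The 5 erythroid markers summed to 1356 to 2291 in vehicle-treated, 50.5 to 3148 in semaglutide-treated and 2849 to 5558 in mice given both agents. The 5 tendon markers summed to 1253 to 6717, 745 to 2713 and 3234 to 3991, and the 3 satellite cell markers to 411 to 537, 589 to 1242 and 435 to 493, in the same order of groups. The summed adipocyte markers overlapped between the groups (1659 to 14503 over all mice), as did those of endothelial cells (3237 to 4182), macrophages (196 to 885), Schwann cells (907 to 2807) and smooth muscle (1258 to 2747). Single markers of these lists still passed by limma. Of 4 smooth muscle markers 2 were lower under semaglutide than under vehicle (26.5% of all genes passed). Of 4 endothelial markers 2 were higher with ketone ester than with semaglutide alone (20.7% of all). Semaglutide-treated mouse 16 had the highest adipocyte and macrophage sums (14503 and 885) and the lowest skeletal muscle sum (916566). No other mouse exceeded 6562 for the adipocyte markers. The part of this in the values of mouse 16 was not tested. No marker in any list was at 0 in all mice.

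Myh4 dominated in every mouse. In vehicle-treated mice the order of the mean levels, as normalized count per kb of coding sequence, was Myh4 (183147 ± 21216, SD, n = 5), Myh1 (12342 ± 1596), Myh2 (10820 ± 3699), Myh7 (1675 ± 826), Myh8 (643 ± 63.6), Myh3 (96.9 ± 14.2) and Myh7b (22.2 ± 10.4). The order of the 7 means was identical in the semaglutide-treated and semaglutide + ketone ester-treated groups. Within each of the 3 groups the ranges over mice overlapped between Myh1 and Myh2 and between Myh7 and Myh8, whereas those of all other neighbours did not. Within a mouse, Myh1 was above Myh2 in 12 of 13 mice (not in vehicle-treated mouse 5) and Myh7 above Myh8 in 11 of 13 (not in mice 3 and 19). Myh4 ranked between 1 and 3 among all genes by normalized count in every mouse, and first in all 3 semaglutide + ketone ester-treated mice.

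As a share of the summed counts of the 7 genes, Myh4 made up 85.9%, 90.8%, 91.7%, 85.3% and 84.0% in vehicle-treated mice 1 to 5. It made up 94.0%, 74.6%, 89.3%, 72.6% and 85.3% in semaglutide-treated mice 13 to 17. In semaglutide + ketone ester-treated mice 19, 21 and 22 it made up 90.7%, 93.3% and 88.0%. The semaglutide-treated mice thus held both the highest share of all 13 mice (mouse 13) and the 2 lowest (mice 16 and 14), and the 3 groups overlapped. The mean share was 87.6% in vehicle-treated, 83.2% in semaglutide-treated and 90.7% in semaglutide + ketone ester-treated mice. The difference of -4.40 percentage points between semaglutide and vehicle had p = 0.349 by a two-sided exact permutation test over mice, and adjusted p = 0.489 over 21 such tests (7 genes in 3 pairs of groups). It was -7.11 points without mouse 13, but -2.27 without mouse 14 and -1.75 without mouse 16. The difference of 7.49 points between semaglutide + ketone ester and semaglutide had p = 0.25 (exact permutation test, adjusted p = 0.488), and was 4.85 points without mouse 16 and 10.2 without mouse 13.

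**Figure D1:**
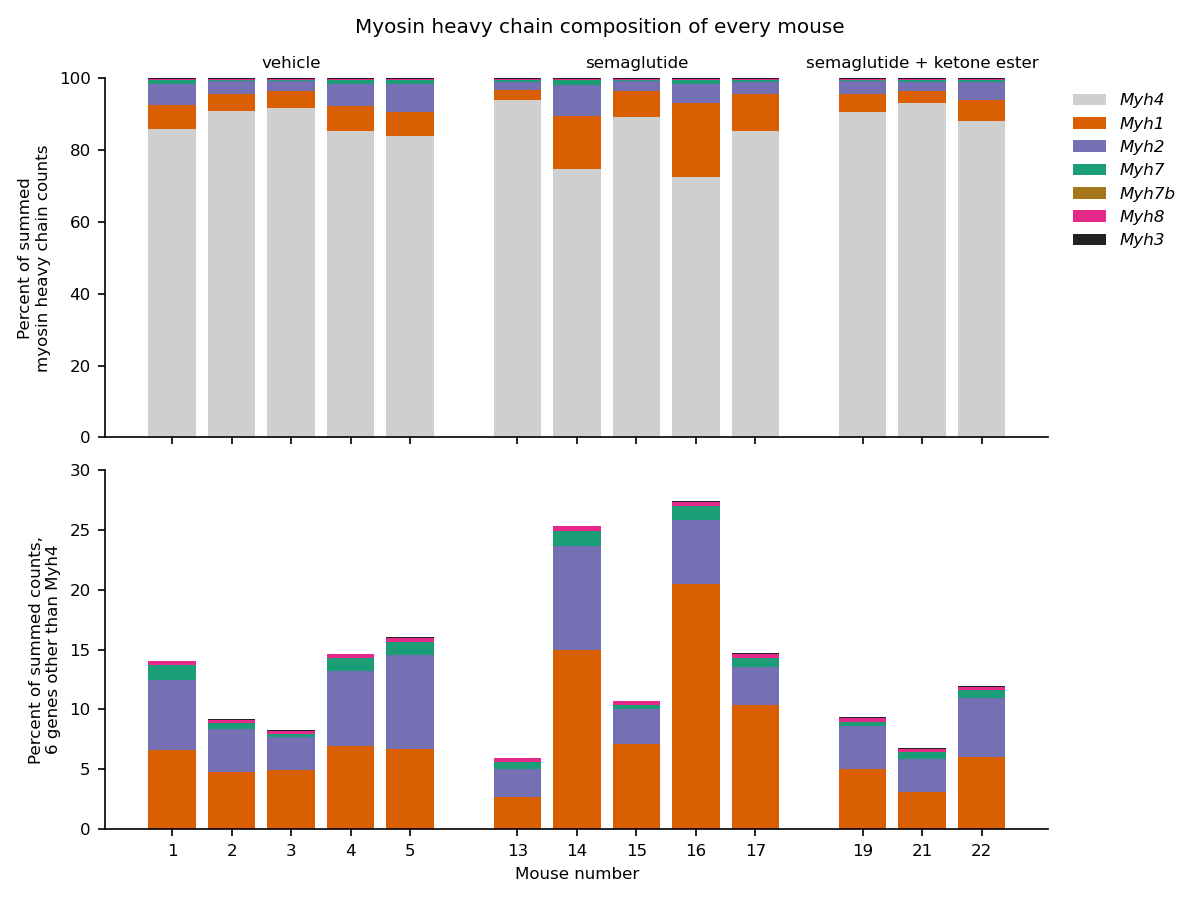
Stacked bars give the percent of the summed normalized counts of the 7 genes that each gene made up in every mouse (upper panel, 0 to 100%) and the 6 genes other than Myh4 on a wider scale (lower panel, 0 to 30%). These 6 genes took 6.0% in mouse 13 and 27.4% in mouse 16, both semaglutide-treated, and 6.7% to 12.0% in the 3 semaglutide + ketone ester-treated mice.

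The type IIx gene Myh1 took most of what Myh4 did not in the semaglutide-treated mice other than mouse 13. It did so too in vehicle-treated mice 2 and 3 and in semaglutide + ketone ester-treated mice 19 and 22. Its share was 6.61%, 4.75%, 4.91%, 6.94% and 6.65% in vehicle-treated mice 1 to 5 and 2.71%, 15.0%, 7.13%, 20.4% and 10.4% in semaglutide-treated mice 13 to 17. It was 5.01%, 3.12% and 6.04% in semaglutide + ketone ester-treated mice 19, 21 and 22. Of the semaglutide-treated mice, 4 lay above the whole vehicle range and mouse 13 lay below it. The difference of 5.15 points from vehicle did not exceed this spread (exact permutation test, p = 0.151, adjusted p = 0.488). Without mouse 13 it was 7.25 points, with p = 0.00794 by the exact permutation test and adjusted p = 0.0833 over the 21 tests. Leaving out the only mouse below the vehicle range left all others above it. This p is thus the smallest that 4 mice against 5 allow, was fixed by that choice and adds no support. Without mouse 16 the difference was 2.81 points.

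The share of the type IIa gene Myh2 was 5.85%, 3.60%, 2.75%, 6.31% and 7.93% in vehicle-treated mice and 2.35%, 8.72%, 2.88%, 5.41% and 3.20% in semaglutide-treated mice. In semaglutide + ketone ester-treated mice it was 3.62%, 2.74% and 4.88%. The groups overlapped, with differences of -0.777 points for semaglutide minus vehicle (exact permutation test, adjusted p = 0.711) and -0.766 points for semaglutide + ketone ester minus semaglutide (adjusted p = 0.769, exact permutation test). The former ran from -1.83 without mouse 14 to -0.116 without vehicle-treated mouse 5 (-0.236 without mouse 13), and the latter turned to 0.286 without mouse 14. The log2 ratio of Myh1 to Myh2, given as a description, was -0.25 to 0.84 in vehicle-treated mice, 0.20 to 1.92 in semaglutide-treated mice and 0.19 to 0.47 in mice given both agents.

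The share of the slow gene Myh7 was 1.24%, 0.476%, 0.251%, 1.05% and 1.07% in vehicle-treated mice, which is a wide spread within 1 group. It was 0.534%, 1.27%, 0.359%, 1.13% and 0.719% in semaglutide-treated mice and 0.318%, 0.539% and 0.674% in semaglutide + ketone ester-treated mice. The mean of 0.804% under semaglutide differed from the vehicle mean of 0.817% by far less than this spread (exact permutation test, p = 0.96). Myh7b took 0.00460% to 0.0171% in vehicle-treated, 0.00706% to 0.0216% in semaglutide-treated and 0.00492% to 0.00786% in mice given both agents. Slow genes together (Myh7 and Myh7b) thus never exceeded 1.29% of the sum in any mouse, and the 3 adult fast genes took 98.3% to 99.4%.

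The share of the neonatal gene Myh8 varied little within the vehicle-treated and semaglutide-treated groups. It was 0.298%, 0.313%, 0.317%, 0.306% and 0.303% in vehicle-treated mice and 0.334%, 0.339%, 0.325%, 0.347% and 0.352% in semaglutide-treated mice, and the 2 groups did not overlap. In semaglutide + ketone ester-treated mice it was 0.348%, 0.283% and 0.316%, across the range of both. The difference of 0.0323 points between semaglutide and vehicle had the smallest p that 5 mice against 5 allow (exact permutation test, p = 0.00794), but adjusted p = 0.167 over the 21 tests. It was the only one of the 21 with p under 0.05 before adjustment, and none had an adjusted p under 0.05. The smallest p that 3 mice against 5 allow is 0.0179. The share of the embryonic gene Myh3 was 0.0380% to 0.0525% in vehicle-treated, 0.0429% to 0.0658% in semaglutide-treated and 0.0416% to 0.0474% in mice given both agents.

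Shares hide changes that all 7 genes have in common, so the levels themselves were compared next, by limma on log2(normalized count + 1) over all tested genes with Benjamini-Hochberg adjustment. In bulk tissue, fewer fibres of a type and less RNA per fibre cannot be told apart. Where nothing is said to the contrary, levels below are normalized counts. Between semaglutide and vehicle, 2 of the 7 genes passed the threshold of an adjusted p of 0.05, both lower (Myh3 and Myh8), where 26.5% of all tested genes passed in either direction and 13.9% as lower, so the count is near the background. Between semaglutide + ketone ester and semaglutide, 3 of 7 passed, all higher (Myh3, Myh4 and Myh8), where 20.7% of all genes passed and 10.0% as higher. Between semaglutide + ketone ester and vehicle none of the 7 passed by limma, 2 had an unadjusted p under 0.05 (10.4% of all genes), and edgeR and DESeq2 called none, where limma called 0.366% of all genes. The median log2 fold change of the 7 genes was -0.38, 0.66 and 0.00 in these comparisons, and that of all tested genes 0.00, 0.00 and -0.01. The first pair of comparisons share the semaglutide-treated mice, so their opposite signs are not independent of each other.

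**Figure D2:**
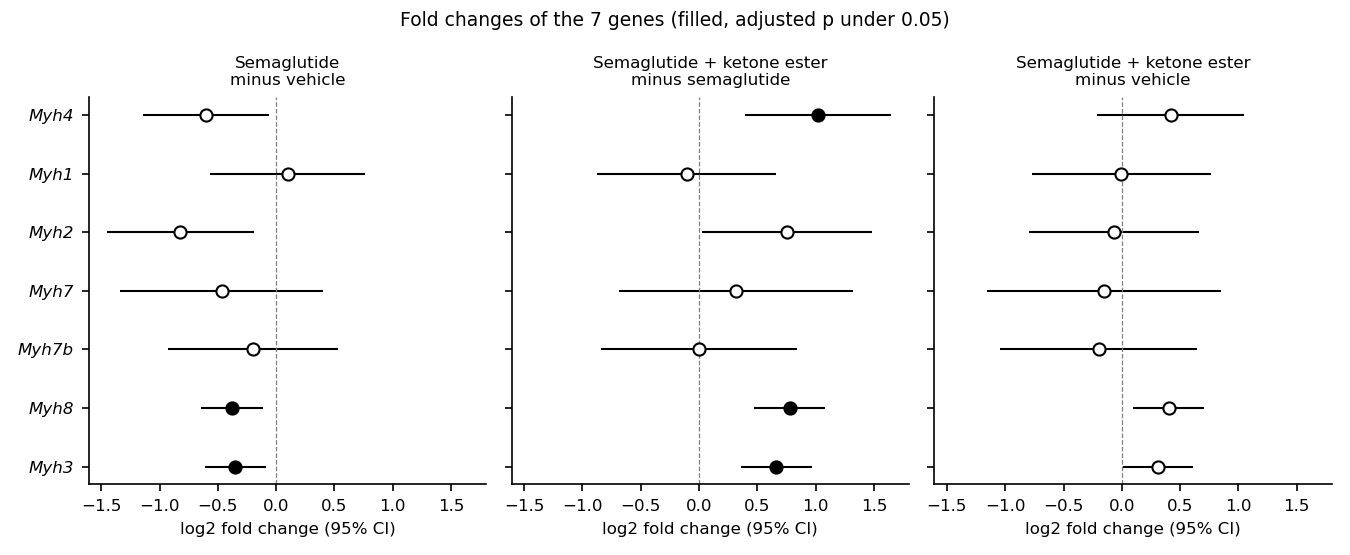
Points give the log2 fold change of each of the 7 genes in the 3 comparisons and lines its 95% confidence interval from limma, with filled points for an adjusted p under 0.05. Myh3 and Myh8 are filled on both sides of 0 in the first and second panel, Myh4 is filled in the second (1.02), and no gene is filled in the third.

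Myh4 itself was at 1024388, 1254491, 1109522, 1008163 and 930256 in vehicle-treated mice 1 to 5 and at 1125064, 568665, 772024, 476031 and 708779 in semaglutide-treated mice 13 to 17. It was at 1319563, 1552316 and 1387130 in semaglutide + ketone ester-treated mice 19, 21 and 22. All semaglutide-treated mice other than mouse 13 lay below the lowest vehicle-treated mouse, and all 3 mice given ketone ester lay above the highest vehicle-treated mouse. The means were 1065364 ± 123414 (SD, n = 5), 730113 ± 249410 (n = 5) and 1419670 ± 119740 (n = 3).

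Between semaglutide + ketone ester and semaglutide the log2 fold change of Myh4 was 1.02 (95% confidence interval 0.39 to 1.65), that is 2.03-fold higher, with adjusted p = 0.025 by limma. Between semaglutide and vehicle it was -0.60 (-1.14 to -0.06) with adjusted p = 0.0943 by limma, and without mouse 13 it was -0.77 with adjusted p = 0.0208. Between semaglutide + ketone ester and vehicle it was 0.42 (-0.21 to 1.05) with adjusted p = 0.714 by limma, although the groups did not overlap, with ketone ester higher, which held for 2 of the 7 genes (Myh4 and Myh8) and for 5.45% of all tested genes. As the gene of the highest mean level Myh4 lies at the end of the variance trend that limma fits, and with no such trend, an alternative chosen after seeing the data, the adjusted p was 0.0371 for semaglutide minus vehicle and 0.0092 for semaglutide + ketone ester minus semaglutide. The call between semaglutide + ketone ester and semaglutide was lost by limma without mouse 14, 17, 21 or 22 in turn (adjusted p = 0.0517, 0.0528, 0.1 and 0.0754), at log2 fold changes of 0.94, 1.02, 0.95 and 1.03.

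The Myh1 level was 78774, 65646, 59442, 81947 and 73709 in vehicle-treated mice, 32406, 113920, 61692, 134139 and 86015 in semaglutide-treated mice, and 72958, 51972 and 95198 in semaglutide + ketone ester-treated mice. The spread under semaglutide (SD 40495) was wider than under vehicle (SD 9297), and the highest and the lowest of all 13 mice, 16 and 13, were both semaglutide-treated. The log2 fold change for semaglutide minus vehicle was 0.10 (95% confidence interval -0.57 to 0.77), with adjusted p = 0.841 by limma. A rise or a fall within this interval was thus not excluded. For semaglutide + ketone ester minus vehicle the log2 fold change was 0.00 (-0.77 to 0.76).

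The Myh2 level was 69737, 49751, 33262, 74558 and 87882 in vehicle-treated mice and 28119, 66430, 24901, 35496 and 26611 in semaglutide-treated mice. In semaglutide + ketone ester-treated mice it was 52676, 45658 and 76850. Under semaglutide, 3 mice lay below every vehicle-treated mouse, mouse 16 lay above the lowest of them and mouse 14 lay near the middle of that group. The log2 fold change for semaglutide minus vehicle was -0.82 (-1.45 to -0.19) with adjusted p = 0.0534 by limma, just outside the threshold. It was -1.07 without mouse 14 (adjusted p = 0.0105) and -1.03 without vehicle-treated mouse 3 (adjusted p = 0.0195). Between semaglutide + ketone ester and semaglutide it was 0.75 (0.02 to 1.48) with adjusted p = 0.131 by limma, and 1.00 with adjusted p = 0.0327 without mouse 14.

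**Figure D3:**
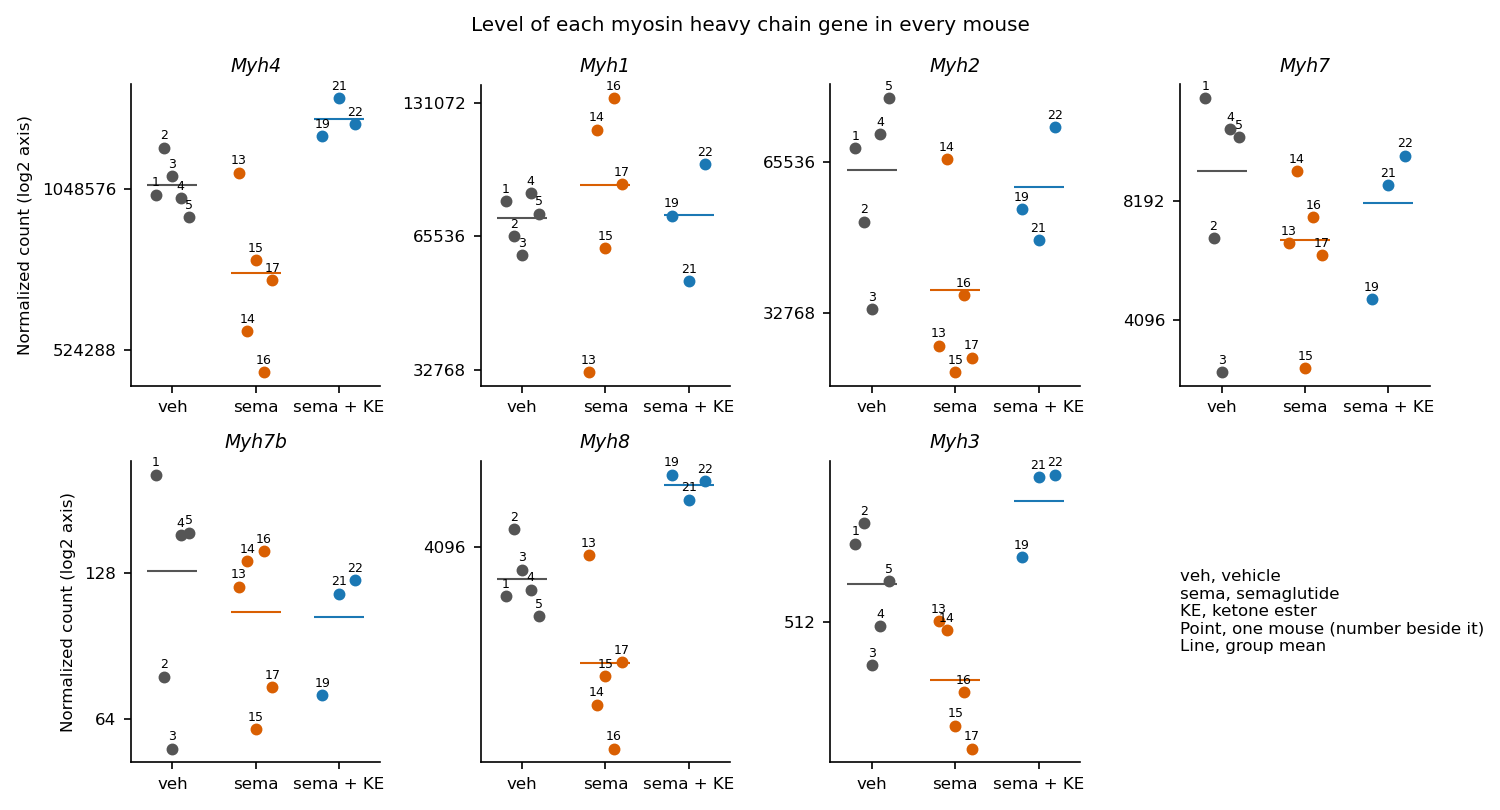
Points give the normalized count of each gene in every mouse on a log2 axis, with the mouse number beside each point, and lines the group means. The 3 mice given ketone ester lie above all other mice for Myh4 and Myh8, and mouse 13 lies with the vehicle-treated mice for Myh4 and Myh8 and at the bottom for Myh1.

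The Myh7 level was 14800, 6580, 3035, 12395 and 11819 in vehicle-treated mice, 6391, 9702, 3106, 7437 and 5974 in semaglutide-treated mice, and 4630, 8964 and 10621 in semaglutide + ketone ester-treated mice. The groups overlapped widely and none of the 3 comparisons passed the threshold. The log2 fold change was -0.47 (-1.34 to 0.40) for semaglutide minus vehicle, 0.32 (-0.69 to 1.32) for semaglutide + ketone ester minus semaglutide and -0.15 (-1.16 to 0.85) for semaglutide + ketone ester minus vehicle. The 6 markers of slow, soleus-type fibres, of which Myh7 is 1, summed to 6819 to 31349 in vehicle-treated mice alone, 6355 to 18568 in semaglutide-treated and 10344 to 20392 in mice given both agents. How much of the deep, slow region each sample held was not recorded in the sources used here, and its part in the Myh7 values was not tested. Myh7b lay between 55.7 and 204 in all mice, from 45 to 178 reads, with log2 fold changes of -0.20, 0.00 and -0.20 in the same 3 comparisons.

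The Myh8 level was 3550, 4318, 3838, 3620 and 3351 in vehicle-treated mice, 4000, 2586, 2813, 2273 and 2928 in semaglutide-treated mice, and 5066, 4708 and 4972 in semaglutide + ketone ester-treated mice. As for Myh4, all semaglutide-treated mice other than mouse 13 lay below and all mice given ketone ester above the vehicle range. Myh8 fell under semaglutide, with a log2 fold change of -0.38 (-0.64 to -0.11) and adjusted p = 0.0377 by limma, and was higher in semaglutide + ketone ester-treated than in semaglutide-treated mice by 0.78 (0.47 to 1.08, adjusted p = 0.00256 by limma). The fall passed the threshold in 5 of 13 fits that left out 1 mouse (adjusted p = 0.000594 without mouse 13, and 0.0963 without vehicle-treated mouse 2), and the latter difference in 13 of 13. The fall was also lost when all columns were rescaled to equal totals (-0.20, adjusted p = 0.147), a scaling that raises the median of all genes by 0.17 for semaglutide minus vehicle and lowers it by 0.24 for semaglutide + ketone ester minus semaglutide. For semaglutide + ketone ester minus vehicle the log2 fold change was 0.40 (0.09 to 0.71, adjusted p = 0.316 by limma).

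The Myh3 level was 626, 660, 459, 507 and 568 in vehicle-treated mice, 514, 501, 393, 428 and 371 in semaglutide-treated mice, and 605, 742 and 746 in mice given both agents. The semaglutide-treated mice overlapped the vehicle-treated mice and lay below all 3 mice given ketone ester. Groups that did not overlap were also found in that last comparison for Myh4 and Myh8, so that 3 of the 7 genes were higher without overlap, against 9.96% of all tested genes. The log2 fold change of Myh3 was -0.35 (-0.61 to -0.09, adjusted p = 0.0464 by limma) for semaglutide minus vehicle and 0.66 (0.36 to 0.97, adjusted p = 0.00537 by limma) for semaglutide + ketone ester minus semaglutide. The former passed in 4 of 13 fits that left out 1 mouse, with the highest adjusted p of 0.119 without mouse 17, and was lost with equal totals (-0.18, adjusted p = 0.272). The latter passed in 13 of 13 such fits and with equal totals (0.43, adjusted p = 0.0287).

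Across the 13 mice some of the 7 genes moved closely together, which is given as a description with no test, since the mice share 3 treatments and each gene is scaled by the same library. Pearson's r of log2(normalized count + 1) was 0.97 between Myh4 and Myh8 and 0.93 between Myh7 and Myh7b, and remained 0.93 and 0.94 with the group means removed. Myh8 stood at 3.44 to 3.60 normalized counts per 1000 of Myh4 in vehicle-treated mice, 3.56 to 4.78 in semaglutide-treated mice and 3.03 to 3.84 in mice given both agents. Reads of Myh4 counted for Myh8 through their shared words would also tie these 2 genes together, and their part in this was not tested. Myh4 and Myh1 ran in opposite directions, with r = -0.60 over all mice and -0.92 with the group means removed. Myh2 ran with Myh7 (r = 0.78) more than with its neighbour Myh1 (r = 0.37).

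**Figure D4:**
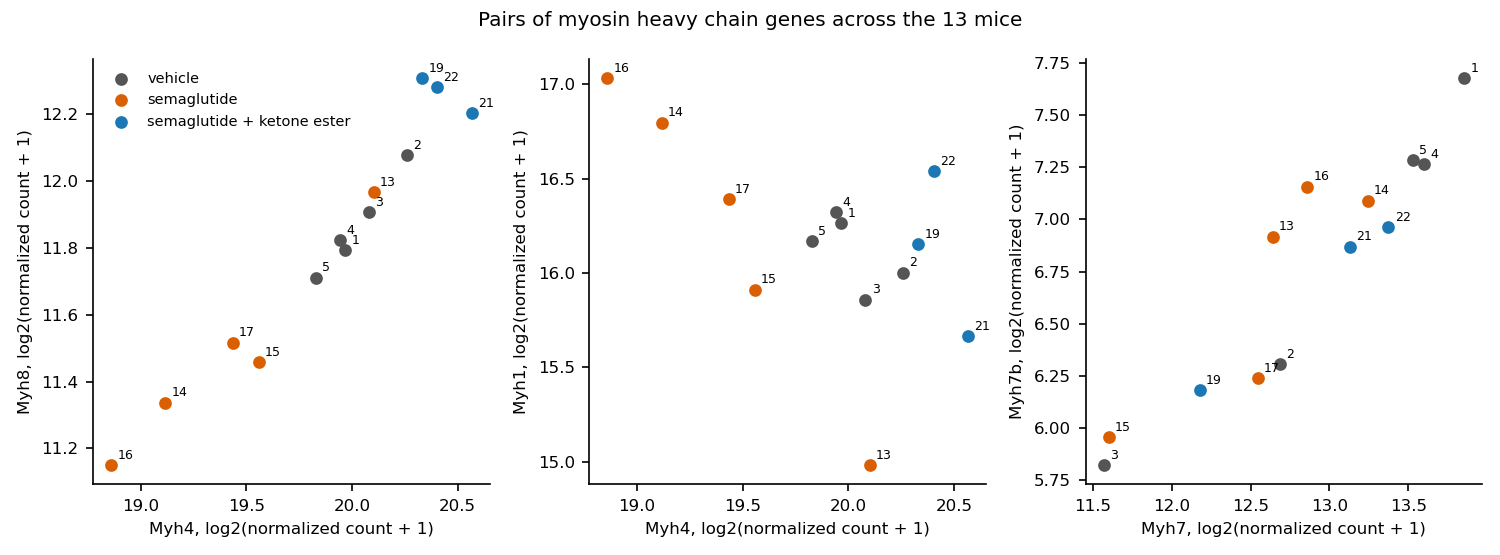
Each point is 1 mouse, coloured by group and numbered, at the log2(normalized count + 1) of a pair of genes. Myh8 rises with Myh4 over the 13 mice (r = 0.97), though not among the 3 mice given both agents, Myh1 is highest in mice 16 and 14, where Myh4 is lowest, and Myh7b rises with Myh7 (r = 0.93) with vehicle-treated mouse 3 lowest and mouse 1 highest in both.

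The genes whose levels were most like each fibre-type gene over the 13 mice were ranked by Pearson's r among all tested genes. For Myh7 the 5 highest were Tnnc1 (r = 0.99), Tnnt1 (0.98), Atp2a2 (0.98), Tnni1 (0.97) and Tpm3 (0.96), which are slow troponin subunits, the slow calcium pump and a slow tropomyosin. For Myh4 they were Tmod1 (0.98), Rnf123 (0.97), Rasgrp3 (0.97), Pvalb (0.97) and Bpgm (0.97). Pvalb encodes parvalbumin, the calcium buffer of fast fibres, and Tmod1 a protein that caps the thin filament. For Myh2 they were Wfs1 (0.98), Esrrg (0.97), Atp1b1 (0.96), Evc (0.95) and Apol6 (0.95), where Esrrg encodes an orphan nuclear receptor of oxidative muscle. For Myh1 the values were lower, from Aldh2 (0.92), Acss2 (0.87), Ephx2 (0.87) and Ctla2a (0.86) to Prob1 (0.85). Aldh2 and Acss2 encode a mitochondrial aldehyde dehydrogenase and an acetyl-CoA synthetase.

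Other genes of the fibre types were taken as lists, whose counts stand beside 26.5%, 20.7% and 0.366% of all tested genes called in the 3 comparisons, and 37.5%, 33.5% and 1.07% without mouse 13. Of 14 slow-fibre genes, 13 were tested. Between semaglutide and vehicle 2 of them passed the threshold, both lower, between semaglutide + ketone ester and semaglutide 1 passed, higher, and between semaglutide + ketone ester and vehicle none did. The median log2 fold changes of the list were -0.32, 0.13 and -0.27. Myl3, the slow ventricular-type essential light chain, fell by 1.32 (SE 0.32) on the log2 scale under semaglutide, with adjusted p = 0.00761 by limma. Its level was 1194 to 4512 in vehicle-treated, 658 to 1367 in semaglutide-treated and 1625 to 2777 in mice given both agents. Pln, the inhibitor of the slow calcium pump, was lower under semaglutide (log2 fold change -0.74, adjusted p = 0.0272 by limma) and higher with ketone ester than without it (0.82, adjusted p = 0.0394 by limma), calls that held in 7 and 5 of 13 fits without 1 mouse and were lost at equal totals (adjusted p = 0.0572 and 0.0863). The slow calcium pump Atp2a2 (-0.42, adjusted p = 0.313), the regulatory light chain Myl2 (-0.32, adjusted p = 0.55) and the stretch-responsive gene Ankrd2 (0.65, adjusted p = 0.387) did not pass under semaglutide by limma. Without mouse 13, Ankrd2 was at 1.11 with adjusted p = 0.0528 by limma. With ketone ester against semaglutide Ankrd2 was not called (-1.11, adjusted p = 0.21 by limma), but it was without mouse 13 (-1.57, adjusted p = 0.0219).

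Of the 13 fast-fibre genes, all were tested. Under semaglutide 4 passed as lower than vehicle and 1 as higher, with ketone ester 6 passed as higher and 1 as lower than with semaglutide alone, and none passed between semaglutide + ketone ester and vehicle. The median log2 fold changes were -0.29, 0.46 and 0.28. Casq1, the calcium store protein of fast fibres, showed the largest of these differences. It was at 34532 to 45035 in vehicle-treated mice, at 45263 in mouse 13 and 6167 to 14010 in the other semaglutide-treated mice, and at 43660 to 60580 in semaglutide + ketone ester-treated mice. Its log2 fold change was -1.57 for semaglutide minus vehicle (adjusted p = 0.0078 by limma) and 1.97 for semaglutide + ketone ester minus semaglutide (adjusted p = 0.00668). The other genes lower under semaglutide were the light chain Myl1 (-1.23), parvalbumin Pvalb (-1.36) and the fast troponin C gene Tnnc2 (-0.59), which are named here after their values were seen. The call for Tnnc2 held in 6 of 13 fits without 1 mouse, and those for Myl1 and Pvalb in 13 of 13. Actn3, a Z-disc protein of fast fibres, went the other way. It rose under semaglutide by 0.74 (adjusted p = 0.00668 by limma), from 137497 to 199135 in vehicle-treated to 208312 to 351569 in all 5 semaglutide-treated mice, mouse 13 included. With ketone ester against semaglutide Actn3 was not called (-0.58, adjusted p = 0.0534 by limma), but it was at equal totals (-0.81, adjusted p = 0.00142). The fast calcium pump Atp2a1 (0.23, adjusted p = 0.403), the troponin Tnnt3 (-0.27, adjusted p = 0.261) and the myosin binding protein Mybpc2 (0.12, adjusted p = 0.604) did not pass under semaglutide by limma. At equal totals, where 35.2% of all tested genes passed under semaglutide, Atp2a1 did pass (0.41, adjusted p = 0.0262 by limma). Without mouse 13, 8 of 13 fast-fibre genes passed under semaglutide and 10 with ketone ester against semaglutide, where the calls over all tested genes also rose, from 3255 to 4611 and from 2546 to 4119.

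**Figure D5:**
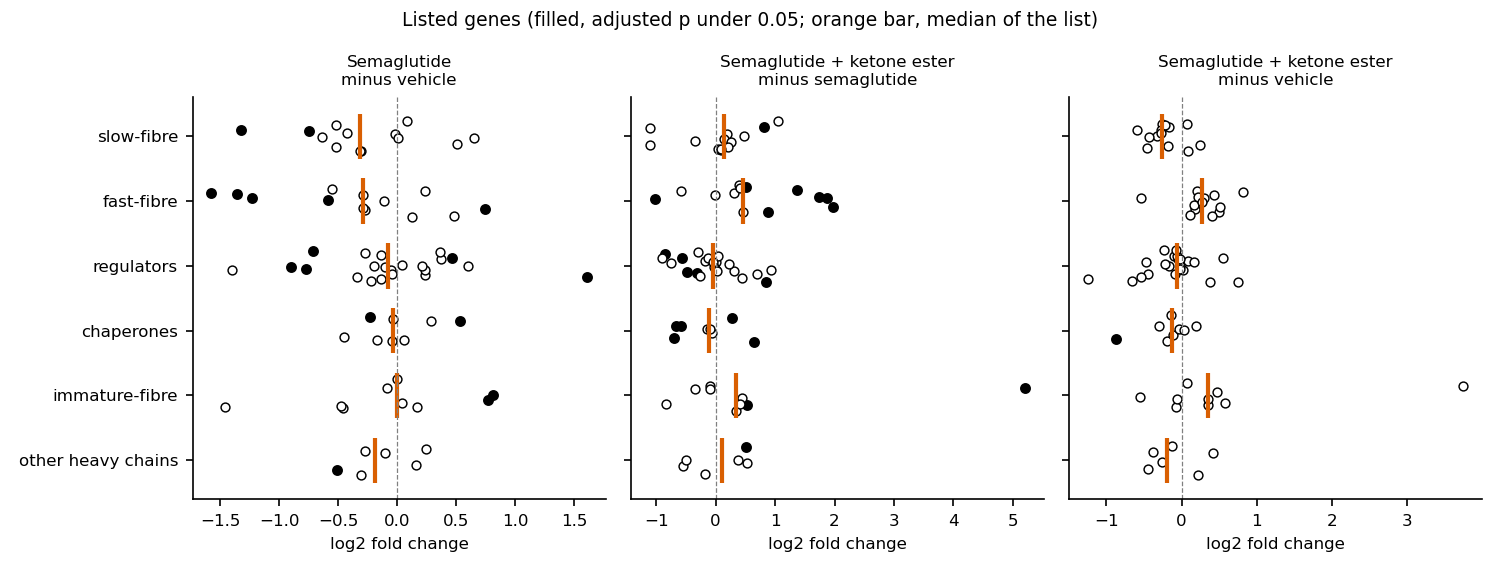
Points give the log2 fold change of every tested gene of 6 lists in the 3 comparisons, filled for an adjusted p under 0.05, and orange bars the median of each list. The fast-fibre list is at -0.29, 0.46 and 0.28, with filled points on both sides of 0, and the point at 5.20 is Actc1.

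Of 22 regulators of fibre type, all tested, 3 were lower and 2 higher under semaglutide than under vehicle, 4 were lower and 1 higher with ketone ester than with semaglutide alone, and none passed between semaglutide + ketone ester and vehicle. With 5 of 22 genes called in each of the former comparisons, against 26.5% and 20.7% of all tested genes, these counts were near the background. The medians were -0.08, -0.04 and -0.07. Myod1, a myogenic factor enriched in fast muscle, rose under semaglutide by 1.61 (SE 0.23, adjusted p = 0.000311 by limma), from 129 to 224 in vehicle-treated to 393 to 942 in all 5 semaglutide-treated mice. With ketone ester it was at 213 to 403, lower than with semaglutide alone by a log2 fold change of -0.85 (adjusted p = 0.0351 by limma), a call lost without mouse 14, 19 or 21. Mef2c, a factor that drives oxidative fibre genes, was at 12905 to 14167 in vehicle-treated mice, at 13926 in mouse 13 and 4901 to 7422 in the other semaglutide-treated mice, and at 12359 to 14702 with ketone ester. Its log2 fold changes were -0.90 (adjusted p = 0.0053 by limma) and 0.85 (adjusted p = 0.0189), the latter lost without mouse 21 or 22. Nfix (-0.05), Maf (-0.20) and Mef2d (0.04) did not pass under semaglutide, with adjusted p = 0.827, 0.548 and 0.736 by limma.

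Of 8 chaperones of myosin folding, 1 was higher and 1 lower under semaglutide than under vehicle, 2 were higher and 3 lower with ketone ester than with semaglutide alone, and 1 was lower with ketone ester than under vehicle. The cytosolic chaperone Hsp90ab1 rose under semaglutide by 0.53 (adjusted p = 0.0242 by limma), with 34703 to 44271 in 4 mice and 21624 in mouse 13, against 21752 to 25121 in vehicle-treated mice. This call was lost without mouse 1, 5, 15 or 17. Its paralog Hsp90aa1 was lower with ketone ester than under vehicle (-0.88, adjusted p = 0.0261 by limma) and than under semaglutide (-0.71, adjusted p = 0.00764). The former call held in 8 of 13 fits without 1 mouse (adjusted p = 0.203 by limma without mouse 21) and the latter in 12 of 13. The myosin chaperone Unc45b (-0.04, adjusted p = 0.817) and the cochaperone Ahsa1 (0.06, adjusted p = 0.648) did not pass under semaglutide by limma, nor did the methyltransferase Smyd1 (-0.45, adjusted p = 0.0772), which was higher with ketone ester than with semaglutide alone (0.65, adjusted p = 0.0385). That call for Smyd1 held in 2 of 13 fits without 1 mouse and was lost at equal totals (0.41, adjusted p = 0.0862). Under semaglutide, Smyd1 did pass without mouse 13 (-0.63, adjusted p = 0.000561 by limma), and Ahsa1 at equal totals (0.23, adjusted p = 0.0348 by limma).

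Of the 13 genes of immature or regenerating fibres, 12 were in the table and 9 were tested. Under semaglutide 2 were higher than under vehicle, with ketone ester 2 were higher than with semaglutide alone, and none passed between semaglutide + ketone ester and vehicle. Chrna1, a subunit of the acetylcholine receptor, rose under semaglutide by 0.82 (SE 0.11, adjusted p = 0.000241 by limma), from 242 to 293 in vehicle-treated to 384 to 571 in semaglutide-treated mice. Runx1, named after its value was seen, was the other gene to rise (0.77, adjusted p = 0.035 by limma), in 8 of 13 fits without 1 mouse. Actc1, the cardiac actin that fetal muscle also uses, was at 1064 to 1926 in vehicle-treated mice and at 2709 in mouse 13 but 185 to 838 in the other semaglutide-treated mice. It was at 2910 in mouse 19, 37383 in mouse 21 and 49782 in mouse 22, so that 2 of the 3 mice given ketone ester stood far above all others. The log2 fold change of Actc1 for semaglutide + ketone ester minus semaglutide was 5.20 (SE 0.89, adjusted p = 0.00168 by limma), and it was 3.75 for semaglutide + ketone ester minus vehicle (adjusted p = 0.101). Igf2, a growth factor of developing muscle, was higher with ketone ester than with semaglutide alone (0.53, adjusted p = 0.0151 by limma) and Ncam1 was not called (0.35, adjusted p = 0.24). The call for Igf2 was lost at equal totals (0.30, adjusted p = 0.0787) and without mouse 21 or 22.

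Of 7 further myosin heavy chain genes, 6 were tested. Myh6, the cardiac alpha chain, was at 22.2 to 92.7 in all mice, or 4.33 to 10.5 per 1000 of Myh7. Myh13, the extraocular chain next to Myh8 in the cluster, was at 130 to 192 in vehicle-treated, 115 to 154 in semaglutide-treated and 154 to 203 in mice given both agents, and it was higher with ketone ester than with semaglutide alone (0.52, adjusted p = 0.0226 by limma), a call lost at equal totals (0.28, adjusted p = 0.168) and without mouse 21 or 22. Myh13 stood at only 0.10 to 0.26 per 1000 of Myh4. Of the 59-base words of Myh4 and Myh8, 1.17% and 3.69% also occurred in Myh13. Whether reads of these genes were counted for Myh13 was not tested. Myh15 had 0 reads in 11 of 13 mice and 1 read in each of the others. Of the nonmuscle and smooth muscle chains, Myh11 was lower under semaglutide (-0.51, adjusted p = 0.0289 by limma), while Myh14 (0.24, adjusted p = 0.372), Myh9 (-0.28, adjusted p = 0.0924) and Myh10 (0.16, adjusted p = 0.743) did not pass. The call for Myh11 was lost at equal totals (-0.34, adjusted p = 0.0949) and held in 8 of 13 fits without 1 mouse. Myh11 is also 1 of the 4 smooth muscle markers, of which 2 were lower under semaglutide, and the part of smooth muscle content in its level was not tested. Without mouse 13, Myh14 passed under semaglutide (0.46, adjusted p = 0.0054 by limma) and with ketone ester against semaglutide alone (-0.71, adjusted p = 0.000743).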

How the data were processed

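RNA of frozen gastrocnemius from 13 mice was made into stranded mRNA libraries and read as paired 59-base reads. The authors aligned the reads to mm10 with DRAGEN, and DESeq2 is named in the submitters' processing notes without a role. The counter and annotation are not given in the sources used here. The deposited signal values are gene counts divided by 1 size factor per mouse, since 100% of values came out as whole reads within 0.01. Genes with a mean normalized count of at least 10 (12303 of 21868) were tested on log2(normalized count + 1) with limma 3.58.1 (variance trend, all 3 groups in 1 fit, Benjamini-Hochberg adjustment, threshold 0.05). Fold changes are on this scale and understate those of low genes. Shares of the 7 genes were compared by exact permutation tests over mice. On the recovered reads edgeR 4.0.16 (quasi-likelihood, TMM) called 3311 genes between semaglutide and vehicle, 2557 between semaglutide + ketone ester and semaglutide and 45 between semaglutide + ketone ester and vehicle. Groups came from the treatment field of the labels, and no mouse number is shared between groups. On simulated data for semaglutide minus vehicle over 12303 genes, the limma step recovered 75% of 200 genes changed 2-fold. Named genes were the 7 members, the 4 highest genes of each list with the largest called change in each comparison, and the 5 genes most like each of Myh1, Myh2, Myh4 and Myh7. The members, lists and tests were chosen with earlier results of these data known. Alternatives were the pseudocount, filter, scaling, weights, tool, denominator and the leaving out of each mouse.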

Additional observations from a re-analysis of the deposited data

Results flagged for a closer look

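Within groups of 5 mice, 7 of 88 sets of values held 1 mouse far from the other 4; chance gives about 1 in 20. Myh2 in semaglutide mouse 14 stood at 66430 normalized counts, against 24901 to 35496 in the other semaglutide mice. In semaglutide mouse 13 the 7 genes took 6.66% of all counts, against 4.37% to 4.78% in the others. The same mouse had 2709 normalized counts of Actc1 (185 to 838 in the others), 45263 of Casq1 (6167 to 14010) and 13926 of Mef2c (4901 to 7422). Semaglutide mouse 16 had 1773 normalized counts of Myh9 (1135 to 1226 in the others) and 184992 of Tnnt3 (266638 to 294724).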

How the results depend on the processing

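Changes below are log2 fold changes, and the cause of each was not tested unless stated. For semaglutide against vehicle, Myh3 and Myh8 no longer passed at equal totals of all genes (-0.18 and -0.20), at equal totals of the other genes, chosen after seeing the data (-0.20 and -0.22), with only the 2 groups in the fit (-0.35 and -0.38) or with limma without a trend, also chosen after seeing the data (-0.35 and -0.38). Myh3 was also lost with every gene above 0 (-0.35), and Myh8 with edgeR (-0.34). Myh4 passed with arrayWeights (-0.62), DESeq2 (-0.54) and no trend (-0.60), and Myh2 with arrayWeights (-0.91). The equal totals shifted the median of all genes by 0.17 in this comparison, by -0.24 for ketone ester against semaglutide and by -0.06 against vehicle.

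For ketone ester against semaglutide, Myh4 was lost with every gene above 0 (1.02), with only 2 groups (1.02) and with quantile normalization (0.39), which by construction gives the top-ranked gene the same value in every mouse. Myh7b turned positive with a pseudocount of 0.1 (1.3e-05) and with arrayWeights (0.29). Against vehicle, Myh8 passed with arrayWeights (0.38) and with only 2 groups (0.40), and Myh1 turned positive with edgeR (0.043) and DESeq2 (0.037). As a log2 ratio to the other 6 genes, Myh7 turned positive for semaglutide against vehicle (0.052).

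The members called for semaglutide against vehicle, 2 by limma, became 1 with every gene above 0, with edgeR and with no trend, 4 with arrayWeights, and 0 with only 2 groups and at both equal totals. Against vehicle with ketone ester, 0 became 1 with arrayWeights and with only 2 groups. At equal totals the slow list had 1 gene called for semaglutide against vehicle and 0 for ketone ester against semaglutide (2 with edgeR), and the regulators had 9 for ketone ester against semaglutide and 1 against vehicle. The immature-fibre list had 1 against vehicle with edgeR.

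Leaving out each mouse in turn gave these ranges. For semaglutide against vehicle they were -0.10 to 0.41 for Myh1, -1.07 to -0.68 for Myh2, -0.42 to -0.29 for Myh3, -0.77 to -0.46 for Myh4, -0.84 to -0.22 for Myh7, -0.46 to 0.00138 for Myh7b and -0.50 to -0.29 for Myh8, with 0 to 3 members called. For ketone ester against semaglutide they were -0.41 to 0.12 for Myh1, 0.54 to 1.00 for Myh2, 0.88 to 1.19 for Myh4, 0.07 to 0.67 for Myh7 and -0.18 to 0.24 for Myh7b. Against vehicle they were -0.21 to 0.22 for Myh1, -0.28 to 0.093 for Myh2, -0.52 to 0.21 for Myh7 and -0.46 to 0.044 for Myh7b. Differences in share ran from -0.155 to 0.0981 percentage points for Myh7 (semaglutide against vehicle), from -1.33 to 0.286 for Myh2 (ketone ester against semaglutide) and from -0.00812 to 0.0245 for Myh8 (ketone ester against vehicle). Without mouse 13, which raised the calls over all tested genes from 26.5% to 37.5%, from 20.7% to 33.5% and from 0.366% to 1.07% in the 3 comparisons, the fast list had 8 genes called for semaglutide against vehicle (5 with all mice), the regulators 9 (5) and the chaperones 4 (2), the slow list had 3 (1) and the regulators 9 (5) for ketone ester against semaglutide, and the immature-fibre list had 2 (0) for ketone ester against vehicle.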
